A study of Mus musculus with 2 samples.

Results

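Recognition of antigen by a T cell starts at the T cell receptor, whose antigen-binding chains have no signaling tail of their own and are carried to the cell surface by the CD3 chains. The tails of these chains hold tyrosine motifs that the kinase LCK phosphorylates, the kinase ZAP-70 then docks there, and ZAP-70 in turn phosphorylates the adaptor LAT, on which the next signaling proteins assemble. CD28 adds the co-stimulatory signal, while CD5 dampens the response, and regulatory T (Treg) cells depend on the same machinery for their development and their suppressive function. The 9 genes described here are Cd3d, Cd3e, Cd3g and Cd247, which encode the CD3 delta, epsilon, gamma and zeta chains, Lck and Zap70 for the kinases, Lat for the adaptor, and Cd28 and Cd5 for both receptors. They were taken by gene symbol, and all 9 of them are among the 20938 genes in the tables.

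Splenic Treg cells from 2 kinds of diabetic mice on day 7 after an islet allograft were sequenced, with 1 library each. In the Foxp3-Mettl14f/+ cKO mice, a Cre expressed from Foxp3 deletes 1 floxed allele of Mettl14, which encodes a subunit of the m6A RNA methyltransferase, so the other allele is kept and the deletion is meant for Foxp3-expressing cells. The controls were littermates, given as wild type by the sample labels and as Mettl14f/f by the methods. Both kinds of mice are on a C57BL/6J background, were made diabetic with streptozotocin and received BALB/c islets under the kidney capsule, and the libraries were made without the tolerance-inducing antibodies. The cells were enriched magnetically for CD4 and CD25, and how many mice went into each library is not given in the sources used here. The sample labels call the second library KD and describe it as a Foxp3 knockdown, whereas the protocol and the methods give the Mettl14 genotype, which is used here.

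The unit of the deposited values is not given in the sources used here. All are whole multiples of 1 step per library and were taken as whole reads divided by 1 size factor. On this reading they correspond to 20239325 control reads and 18327535 cKO reads, and the intervals below rest on it. Mettl14 had 948 and 652 reads (log2 fold change -0.31, 95% interval -0.45 to -0.16), and Foxp3 had 1547 and 1361 reads (0.05, -0.06 to 0.15). All 10 of the Treg markers examined were detected, with 10182 and 9444 reads in sum. RNA of other cells was present in both libraries. The 10 granulocyte markers summed to 234210 and 270605 reads, far above the Treg markers. The 10 B cell markers summed to 7736 and 36690 reads, the 10 macrophage markers to 3827 and 10894, the 10 CD8 T and NK cell markers to 6080 and 10156, and the 10 erythroid markers to 49387 and 17656. No marker of these lists was at 0 in either library. The part of these cells in the results below was not tested. Since each genotype has a single library, the spread between replicates is unknown, every difference below compares 2 libraries, and the 95% intervals cover counting error only.

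All 9 genes of the receptor complex and its proximal signaling were lower in the cKO library. Their summed reads numbered 32016 in controls against 21556 in cKO, or 0.158% (95% exact binomial interval 0.156% to 0.160%) against 0.118% (0.116% to 0.119%) of the library. Every gene was well detected, with at least 1231 reads in each library, and all of them lay between the 80.6th and the 95.2nd percentile of level, not corrected for length, among the 16659 genes tested (those averaging 1 normalised read or more). The log2 fold changes ran from -0.17 for Lat to -0.66 for Cd3g, with a median of -0.25, against a median of -0.04 over all genes tested. The intervals of all 9 genes were below 0, as were those of 34.7% of all genes tested. Of the 9, only Cd3g was at least 1.5-fold lower, whereas 24.2% of all genes tested were, and none was at least 1.5-fold higher, against 17.2% of all genes tested. These shares include genes with few reads, since 2806 of the 16659 had 0 reads in 1 of the libraries. With a minimum mean level of 10, 2035 of 13676 genes were lower and 2112 higher by this limit. The count of 1 depends on the scaling and the test: 2 of the 9 were lower by this limit with library totals, the trimmed mean of M-values (TMM) or the median of ratios as the scaling, and none with other T cell genes set equal or with edgeR's exact test at an assumed coefficient of variation of 0.2 or 0.4. The changes of the 9 genes ranged from the 22.5th to the 41.2nd percentile of all genes tested. They were thus not among the extremes of this set, which includes genes with few reads. In bulk RNA, fewer T cells in a library and less of these transcripts per T cell cannot be told apart.

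**Figure D1:**
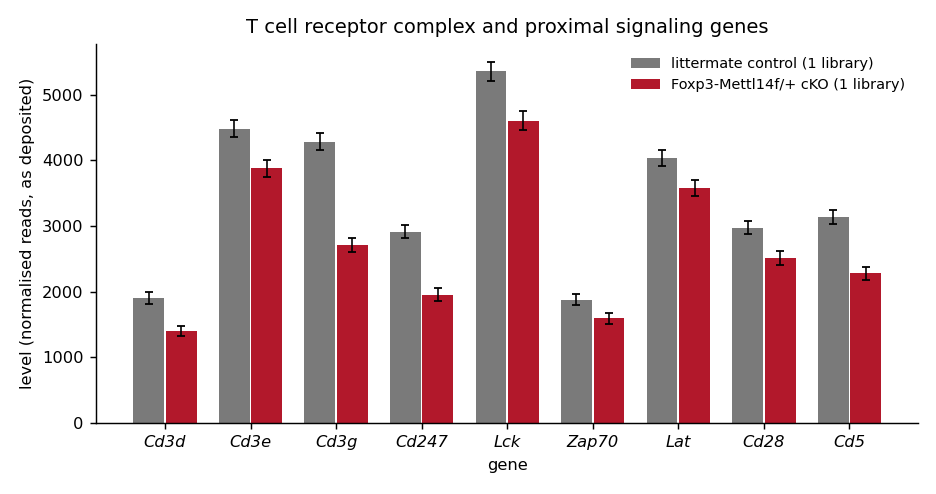
Level of each gene (vertical axis, normalised reads as deposited) in the control library (grey) and the cKO library (red), with bars for the level and error bars for the 95% exact Poisson interval of its reads. Each red bar is lower than its grey neighbour, most clearly for Cd3g at 4285 and 2708 and least for Lat at 4037 and 3579.

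Among the receptor chains, Cd3e encodes the epsilon chain, which pairs with both the gamma and the delta chain. Its level was 4487 normalised reads in controls against 3881 in cKO (4638 and 3413 reads). The cKO level was 13.5% lower, a log2 fold change of -0.21 (95% interval -0.27 to -0.15). Cd3g encodes the gamma chain, and its level was 4285 in controls against 2708 in cKO. These levels came from 4429 and 2381 reads, and the change was -0.66 (-0.73 to -0.59). At 1.58-fold lower, Cd3g had the largest difference of the 9 genes. For Cd3d, which encodes the delta chain, the level was 1902 in controls against 1400 in cKO (1966 and 1231 reads). The change was -0.44 (-0.55 to -0.34), between those of its chromosomal neighbours Cd3e and Cd3g. Cd247 encodes the zeta chain, the homodimer with the most tyrosine motifs in the complex. It had a level of 2916 in controls against 1956 in cKO (3014 and 1720 reads). This was a change of -0.58 (-0.66 to -0.49), 1.49-fold lower and thus just short of the 1.5-fold limit. Cd247 shares exon bases with Pou2f1 on the opposite strand, 3007 of the 5329 bases in all annotated Cd247 transcripts but 0 of the 1632 bases of its principal transcript. Pou2f1 itself had 2807 and 2483 reads, a change of 0.06 on the log2 scale, and whether the reads were counted by strand is not given in the sources used here. The antigen-binding chains themselves (Trac, Trbc1, Trbc2 and the gamma and delta constant genes) were not found by symbol among the genes with values, so they were not analysed here.

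Because the make-up of the CD3 chains within a library does not depend on how the libraries are scaled, the 4 chains were also compared as shares of their summed reads. Cd3e took 33.0% of these reads in the control library (95% interval 32.2% to 33.8%) against 39.0% in cKO (38% to 40.1%). The share of Cd3g was 31.5% (30.8% to 32.3%) and 27.2% (26.3% to 28.2%), and that of Cd247 was 21.5% (20.8% to 22.1%) and 19.7% (18.8% to 20.5%). Cd3d held 14% (13.4% to 14.6%) in controls against 14.1% (13.4% to 14.8%) in cKO. Thus the epsilon transcript took a larger share, the gamma and zeta transcripts a smaller one, and the intervals of the delta transcript overlapped. Per base of the principal transcript, the level of Cd3g was 1.36 times that of Cd3e in controls against 0.997 times in cKO. With the union of all annotated exons as the length, these ratios of levels were 1.19 and 0.871. A fixed length drops out when the ratio is compared between libraries. Both lengths thus give the same relative difference as the reads by construction.

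**Figure D2:**
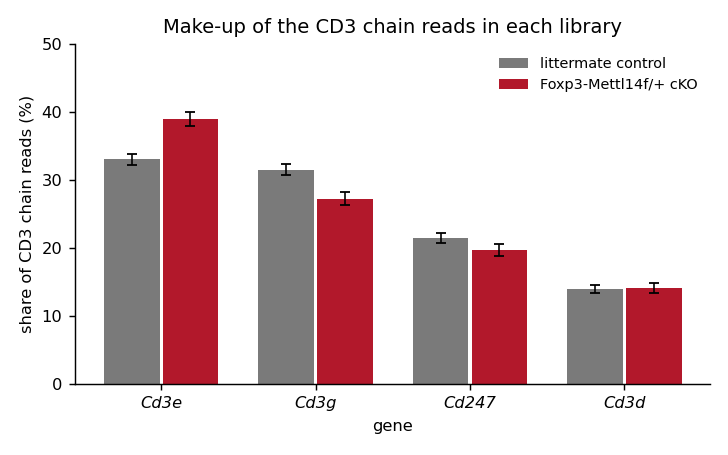
Share of each chain in the summed reads of Cd3e, Cd3g, Cd247 and Cd3d (vertical axis, percent) in the control library (grey) and the cKO library (red), with 95% exact binomial intervals. Cd3e stood at 33.0% and 39.0%, Cd3g at 31.5% and 27.2%, Cd247 at 21.5% and 19.7%, and Cd3d at 14% and 14.1%.

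Cd3g, Cd3d and Cd3e are neighbours on mouse chromosome 9 of GRCm38 (44969572 to 44980431 on the minus strand, 44981786 to 44987339 on the plus strand and 44998740 to 45009627 on the minus strand). Cd3g and Cd3d are read away from each other, with 1354 bases between their starts. For these adjacent genes, the 250 bases before each start are shown from RefSeq (GRCm38.p6), together with those before the upstream start of Lck. Capitals mark matches on either strand to the core letters AGGAAG of ETS factors, TGTGGT of RUNX factors, CTTTGA of TCF/LEF factors, CACCTG of E proteins and AGATAA of GATA factors, which are families that act in T cells.
Cd3g (chr9:44980432-44980681, minus strand): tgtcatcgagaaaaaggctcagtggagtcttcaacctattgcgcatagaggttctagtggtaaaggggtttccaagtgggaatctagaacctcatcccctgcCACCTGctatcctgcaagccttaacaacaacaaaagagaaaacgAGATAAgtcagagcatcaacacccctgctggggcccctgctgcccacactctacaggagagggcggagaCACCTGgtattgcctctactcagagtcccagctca
Cd3d (chr9:44981536-44981785, plus strand): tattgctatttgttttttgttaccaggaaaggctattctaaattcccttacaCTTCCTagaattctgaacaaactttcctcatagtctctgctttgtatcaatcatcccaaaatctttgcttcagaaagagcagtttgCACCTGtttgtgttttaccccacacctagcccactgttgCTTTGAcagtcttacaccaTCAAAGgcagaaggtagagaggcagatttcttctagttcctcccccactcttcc
Cd3e (chr9:45009612-45009861, minus strand): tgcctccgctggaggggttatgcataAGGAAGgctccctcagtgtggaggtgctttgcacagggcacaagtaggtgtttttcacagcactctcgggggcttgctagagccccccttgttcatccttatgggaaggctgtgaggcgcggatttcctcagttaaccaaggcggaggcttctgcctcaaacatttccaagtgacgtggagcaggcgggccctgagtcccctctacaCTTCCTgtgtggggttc
Lck (chr4:129573642-129573891, minus strand): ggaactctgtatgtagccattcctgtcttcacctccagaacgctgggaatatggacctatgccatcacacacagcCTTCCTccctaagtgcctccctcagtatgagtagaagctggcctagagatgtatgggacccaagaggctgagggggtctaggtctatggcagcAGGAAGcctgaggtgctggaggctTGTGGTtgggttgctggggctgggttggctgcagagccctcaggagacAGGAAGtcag

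The window of Cd3g held 2 matches to CACCTG and 1 to AGATAA, and none to AGGAAG, while that of Cd3e held 2 matches to AGGAAG and no other. The window of Cd3d had 1 match to AGGAAG, 2 to CTTTGA and 1 to CACCTG, and that of Lck had 3 to AGGAAG and 1 to TGTGGT. The RefSeq table held 11 such windows for 8 of the 9 genes, since Lck has 2 starts and Zap70 has 3. Of these 11 windows, 9 held AGGAAG and 7 held CACCTG, against 29.5% and 17.2% of the windows of all 32851 starts. TGTGGT was in 2 of the 11 (14% of all windows), CTTTGA in 2 (13.8%) and AGATAA in 1 (9.99%). Of the windows not shown, that of Cd247 held 1 match to AGGAAG, that of Cd5 2 and that of Lat 1. The other window of Lck held 1, and those of Zap70 held 1, 2 and 0. These matches describe letters only and not binding, and whether they go with the changes was not tested.

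The kinases differed less between the libraries than most of the receptor chains. Lck, on chromosome 4 (129548344 to 129573641, minus strand), is the Src family kinase bound to the co-receptor CD4. Its level was 5358 in controls against 4608 in cKO (5539 and 4052 reads). The change on the log2 scale was -0.22 (95% interval -0.28 to -0.16), a 1.16-fold lower level. Zap70, on chromosome 1 (36761798 to 36782818, plus strand), encodes the kinase that binds the phosphorylated CD3 tails. Its level was 1873 in controls against 1595 in cKO (1936 and 1403 reads), with a change of -0.23 (-0.33 to -0.13). The kinases thus kept nearly the same proportion, with 2.86 Lck reads per Zap70 read in controls against 2.89 in cKO. The log2 change of Zap70 minus that of Lck was -0.01 (-0.13 to 0.10). Lat, on chromosome 7 (126363824 to 126369570, minus strand), encodes the membrane adaptor that ZAP-70 phosphorylates, and had a level of 4037 in controls against 3579 in cKO (4173 and 3147 reads). Its change of -0.17 (-0.24 to -0.11) was the smallest of the 9.

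Of the receptors that tune the signal, Cd28 lies on chromosome 1 (60716800 to 60773359, plus strand) and had a level of 2977 in controls against 2506 in cKO. These came from 3077 and 2204 reads, and the change on the log2 scale was -0.25 (95% interval -0.33 to -0.17). Cd5, on chromosome 19 (10717116 to 10739002, minus strand), restrains receptor signaling, and in T cells its amount at the surface follows the strength of that signaling. Its level was 3138 in controls against 2280 in cKO (3244 and 2005 reads), a change of -0.46 (-0.54 to -0.38). The inhibitory receptor was therefore further below its control level than the co-stimulatory receptor. The log2 change of Cd5 minus that of Cd28 was -0.21 (-0.33 to -0.10).

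To compare levels between genes, reads were divided by the length of the principal transcript and by the library total (RPKM). In the control library Cd3g came first at an RPKM of 214, followed by Lat at 167, Cd3e at 157, Lck at 125, Cd247 at 91.2, Cd3d at 60.1, Cd5 at 53.6, Zap70 at 42.6 and Cd28 at 35.0. In the cKO library Lat came first at 139, and Cd3e and Cd3g followed, both at 127. Behind them the order was the same, from Lck at 101 and Cd247 at 57.5 over Cd3d at 41.5, Cd5 at 36.6 and Zap70 at 34.1 to Cd28 at 27.7. With these lengths, Cd3g went from the first to the third place. The order depends on the length used, since with the union of all annotated exons Lck came first in both libraries, at 93.4 and 75.5, while Cd3g went from the third to the fourth place, Cd5 from the sixth to the seventh and Cd247 from the eighth to the ninth.

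Setting the changes of the 9 genes against each other gives differences that are free of the scaling. Of the 36 pairs of genes, 23 had a 95% interval of their difference in log2 change that left out 0, and 20 did so with the intervals widened for 36 comparisons. None of the 10 pairs among Cd28, Zap70, Lck, Cd3e and Lat did so, and the widest of these differences was -0.07 (-0.18 to 0.03), between Cd28 and Lat. All 20 pairs between these 5 genes and Cd3g, Cd247, Cd5 and Cd3d did, 18 of them with the wider intervals. This grouping was read off the ordered values and is a description. The log2 change of Cd3g minus that of Cd3e was -0.45 (-0.55 to -0.36), whereas Cd3g and Cd247 differed by -0.09 (-0.20 to 0.03). A difference of this size between libraries of 1 genotype was not measured here.

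Whether the 9 genes moved apart from other T cell transcripts was examined by setting equal the median of 15 further T cell genes. These hold none of the 9 and include Cd2, Thy1, Bcl11b and Themis, and 13 of them are also among the pathway genes below. Whether their reads come from T cells alone was not tested. On the deposited scale these 15 genes had a median change of -0.29, beside -0.25 for the 9 genes, and 11 of the 15 were below 0. With them set equal, the median of all genes moved from -0.04 to 0.25, and the changes below are relative to that shift. Under this scaling the median of the 9 genes was 0.04, and 5 of them were above 0, beside 10820 of the 16659 genes tested. These 5 were Lat at 0.12, Cd3e at 0.08, Lck at 0.07, Zap70 at 0.06 and Cd28 at 0.04. Cd3g was still lower at -0.37 (95% interval -0.45 to -0.30), Cd247 at -0.29 (-0.37 to -0.20), Cd5 at -0.17 (-0.25 to -0.09) and Cd3d at -0.15 (-0.26 to -0.05). All 9 genes lay below the median of all genes, as on the deposited scale, because the scaling shifts all genes nearly alike. None was 1.5-fold changed under this scaling. The 15 T cell genes themselves ran from -0.55 for Trat1 to 0.59 for Tespa1, a range that holds all 9 genes. The intervals above leave out this spread of the 15 genes.

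**Figure D3:**
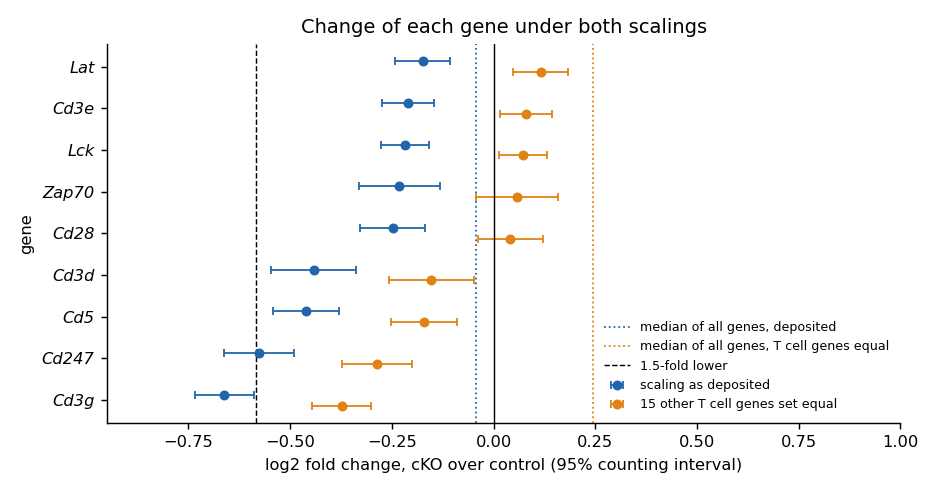
Log2 fold change of each gene (horizontal axis, cKO over control) with its 95% counting interval, as deposited (blue) and with 15 other T cell genes set equal (orange); dotted lines mark the median of all genes under each scaling, and the dashed line a 1.5-fold lower level. As deposited all 9 intervals lie below 0, from -0.17 for Lat to -0.66 for Cd3g, and with the T cell genes equal Lat, Cd3e, Lck, Zap70 and Cd28 lie above 0.

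Relative to the Treg factor Foxp3, each of the 9 genes had fewer reads in the cKO library. Their summed reads came to 20.7 per Foxp3 read in controls against 15.8 in cKO. There were 2.86 and 1.75 Cd3g reads, 1.95 and 1.26 Cd247 reads and 3.0 and 2.51 Cd3e reads per Foxp3 read. This depends on the marker taken, since 6 of the 10 Treg markers changed above 0 and 4 below. They ran from -0.68 for Tnfrsf4 to 0.68 for Il2ra. Ikzf2, the most abundant of them, had 2529 and 1850 reads and a change of -0.22, the same as that of Lck. Relative to the co-receptor Cd4, by contrast, Lck and Cd3e had more reads in the cKO library. The reads of Cd4 were 8371 and 4658, a change of -0.61 (95% interval -0.66 to -0.56), and the ratio of Lck to Cd4 reads was 0.662 and 0.870. Cd8a, the co-receptor of cytotoxic T cells, had 449 and 1824 reads and a change of 2.25 (2.11 to 2.41). CD8 T cells carry the same CD3 chains and kinases as Treg cells, NK cells hold the zeta chain and ZAP-70, and the part of these cells in the values of the 9 genes was not tested.

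The other genes of the pathway lay on both sides of 0. Of 51 further pathway genes measured, 31 had a positive and 20 a negative log2 fold change, with a median of 0.08, and 4 were higher and 6 lower in cKO by 1.5-fold or more, both smaller shares than the 17.2% and 24.2% of all genes tested. With the other T cell genes set equal, 14 were higher and 2 lower, beside 27.6% and 19.4% of all genes tested. Of the 9 genes 5 were above 0, beside 10820 of the 16659 genes tested, and none was past 1.5-fold. The share of higher genes was thus near that of all genes, and the difference between the 51 and the 9 genes was not tested. In the proximal kinases and the phosphatase CD45, 1 of 6 genes was past 1.5-fold, beside 17.2% of all genes tested higher and 24.2% lower. This was the Tec kinase gene Tec, with 753 and 1180 reads and a change of 0.88 (95% interval 0.75 to 1.02). Fyn, the other Src family kinase at the receptor, changed by 0.05 (-0.02 to 0.11). Among 14 adaptors and effectors that assemble with LAT, 2 were at least 1.5-fold lower, beside 24.2% of all genes tested. These were Trat1, which encodes an adaptor that associates with the receptor complex, with 905 and 431 reads (-0.84, -1.01 to -0.67), and Nck2, with 823 and 458 reads (-0.61, -0.78 to -0.45). Lcp2, which encodes the LAT partner SLP-76, changed by 0.14 (0.08 to 0.20).

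Of 16 genes that restrain the receptor signal, 10 were above 0, beside 46.7% of all genes tested, with a median of 0.20. The intervals of 8 were above 0 and those of 5 below it, so the group had no single direction. By 1.5-fold or more, 2 of the 16 were higher and 1 lower, beside 17.2% and 24.2% of all genes tested. Ptpn22, a phosphatase that acts on LCK and ZAP-70, went from 4012 to 6235 reads with a change of 0.87 (95% interval 0.81 to 0.93), and the adaptor gene Lax1 changed by 0.67 (0.58 to 0.76). Sla, whose product takes part in the breakdown of the zeta chain, was the single member of this group at least 1.5-fold lower, with 3654 and 1602 reads and a change of -0.96 (-1.04 to -0.87). Downstream of LAT and CD28, 1 of 7 genes was past 1.5-fold, beside 17.2% of all genes tested higher and 24.2% lower. This was Malt1, the paracaspase of the pathway to NF-kappaB, at 0.69 (0.63 to 0.76), while Prkcq changed by -0.29 (-0.35 to -0.22). In the group of 8 co-receptor and co-stimulation genes the median was -0.31, and Cd4, Pdcd1 and Tnfrsf4 were at least 1.5-fold lower, beside 24.2% of all genes tested. With the other T cell genes set equal the median of this group was -0.02 and only Pdcd1 was lower by that much. Pdcd1, which encodes the inhibitory receptor PD-1, had 358 and 145 reads and changed by -1.07 (-1.36 to -0.79). Many of these pathway genes are also used by B cells and myeloid cells. All 10 B cell and all 10 macrophage markers were at least 1.5-fold higher in cKO, whereas 2 of the 10 granulocyte markers were higher and 2 lower, and the part of these cells was not tested. Nck2, Lax1, Fyn, Lcp2, Prkcq, Cd4 and Tnfrsf4 were named here after their values were seen.

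**Figure D4:**
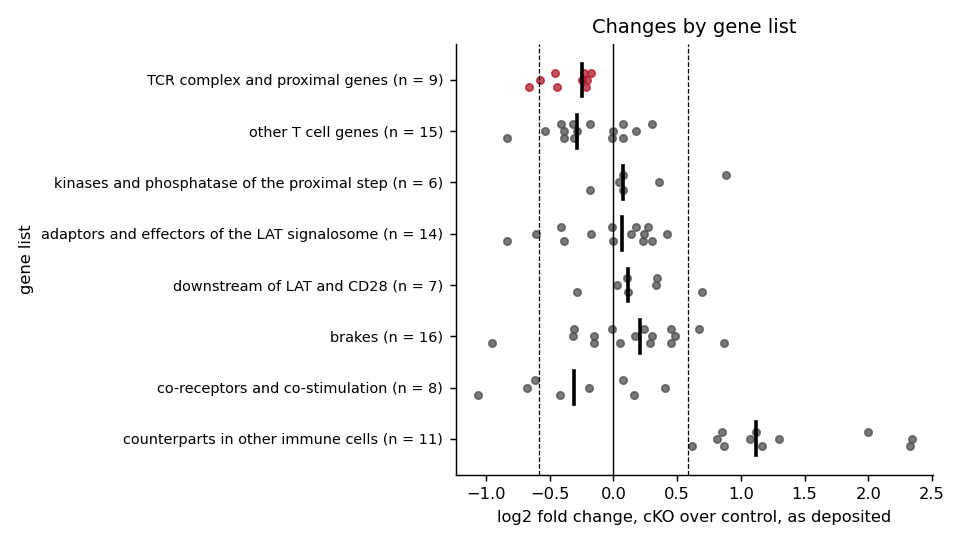
Log2 fold change (horizontal axis, cKO over control, as deposited) of each gene in the lists, with the 9 receptor complex and proximal genes in red, black bars for the medians and dashed lines at a 1.5-fold change. The 9 genes lie between -0.66 and -0.17 around a median of -0.25, the 15 other T cell genes have a median of -0.29, and the 11 counterparts in other immune cells lie between 0.61 and 2.34.

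Several of the 9 genes have relatives that do the same task in B cells, myeloid cells or NK cells, and all 11 such genes measured were higher in cKO by 1.5-fold or more, against 17.2% of all genes tested, with a median log2 fold change of 1.11. Syk, the relative of Zap70, had 5385 and 11280 reads and a change of 1.30 (95% interval 1.25 to 1.35). The number of Zap70 reads per Syk read therefore went from 0.360 to 0.124. For Lck and its relative Lyn this ratio was 1.37 and 0.526, and for Cd247 and the Fc receptor chain gene Fcer1g it was 1.91 and 0.732. Lat had 10.4 reads per Lat2 read in controls against 4.40 in cKO. The ratio of Cd3e to Cd79a, which encodes a chain of the B cell receptor, went from 4.58 to 0.790, and Cd79a changed by 2.33 (2.23 to 2.43). Blk, a Src family kinase of B cells, had the largest change of these relatives, 2.34 (2.19 to 2.50), from 413 to 1781 reads. The marker lists of B cells and macrophages were higher in the same library, as given above, and their part in these ratios was not tested. Blk, Cd79a and Cd79b are in both the B cell marker list and this list of relatives, so these lists are not separate observations.

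Relatives of the same T cells were closer. Ctla4, the inhibitory receptor that competes with CD28 for its ligands, changed by 0.40 (95% interval 0.24 to 0.56), and Cd28 reads per Ctla4 read went from 5.0 to 3.18. Icos changed by 0.16 (0.03 to 0.29) and the ratio of Cd28 to Icos reads from 3.10 to 2.34. Cd6, which lies in the same receptor family as Cd5, changed by -0.32 (-0.40 to -0.24), and Cd5 had 1.06 reads per Cd6 read in controls against 0.963 in cKO. Thus Cd5 and Cd6 were lower together, with a difference in log2 change of -0.14 (-0.26 to -0.03), whereas Cd28 moved in the opposite direction to Ctla4 and Icos on the deposited scale. With the other T cell genes set equal, Cd28 at 0.04, Ctla4 at 0.69 and Icos at 0.45 were all above 0, as were 10820 of the 16659 genes tested.

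**Figure D5:**
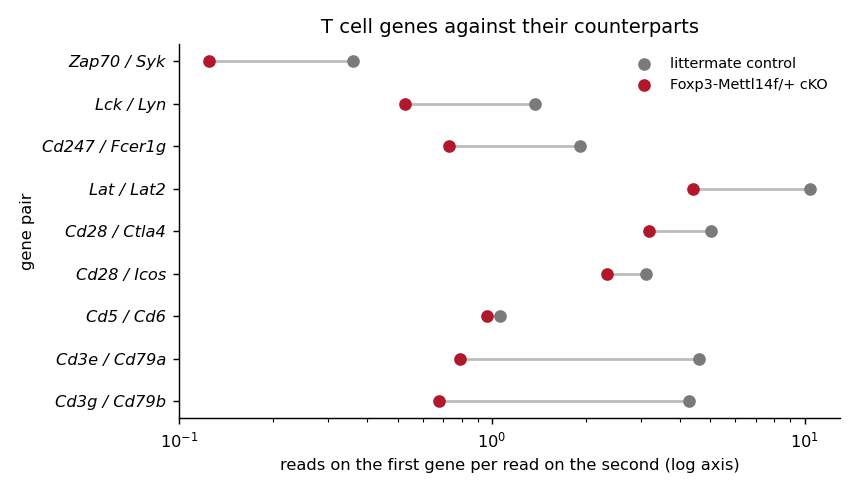
Reads on the first gene per read on the second gene of each pair (horizontal log axis, not corrected for transcript length) in the control library (grey) and the cKO library (red). Every ratio is lower in the cKO library, from 0.360 to 0.124 for Zap70 against Syk and only from 1.06 to 0.963 for Cd5 against Cd6.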

How the data were processed

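RNA-seq of splenic Treg cells gave 1 control and 1 Foxp3-Mettl14f/+ cKO library. Per the methods, the authors aligned the reads to mm10 with TopHat. The submitters' processing notes name bcl2fastq 2.0, STAR, StringTie and DESeq2. The annotation, the counting and the use of strand are not given in the sources used here. The authors deposited 1 signal per gene and library. All values (100%, within 0.01 reads) are whole multiples of the smallest one, 0.967 in the control and 1.14 in the cKO library. Whole counts were recovered by division and taken as reads, since the unit is not given. Depth was 20239325 and 18327535 reads.

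Changes are log2 of the cKO over the control value with a pseudocount of 1, for genes with a mean of at least 1, and the 1.5-fold threshold is that of the methods. Intervals are exact Clopper-Pearson intervals of the cKO share of a gene's reads, and those of differences between genes use the normal approximation on the log scale. Both cover counting error only, since each genotype has 1 library. Without molecular identifiers 2 reads may stem from 1 molecule, so the intervals may be too narrow even for counting error. As alternatives, exact binomial testing (two-sided) of the reads with the deposited scaling called 2183 of 14863 genes higher and 2583 lower (adjusted p under 0.1 and 1.5-fold), and edgeR's exact test assumed a coefficient of variation of 0.2 or 0.4. These tests compare 2 libraries, not genotypes. Other pseudocounts, filters, thresholds and scalings were tried.

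The genes, gene lists and tests were chosen with earlier results of these data known, and the lists come from general knowledge. Named were the 9 genes, their relatives, Mettl14, Foxp3, and per pathway list the genes of at least 10 reads with the largest rise and fall past 1.5-fold. Likeness of pattern was not ranked, as any genes moving one way correlate fully over 2 libraries. Positions and lengths are from GENCODE vM21 on GRCm38, which held 20524 of the 20938 symbols. Python 3.11.15, scipy 1.17.1, pandas 2.3.3, R 4.3.3 and edgeR 4.0.16 were used. The intervals of single genes and the exact binomial test were tried on simulated reads with Poisson counting error only and the deposited scaling. The other steps were not tested in this way.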

Additional observations from a re-analysis of the deposited data

How the results depend on the processing

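No paired analysis was possible because there is just 1 library per genotype, and for the same reason no replicate could be left out. Pseudocounts of 0.1 and 5 kept the direction of each of the 9 genes, and with them, without a filter and with a minimum mean level of 10 the counts of the 9 genes and of the 51 pathway genes stayed within 1.5 times. Scaling decided most. With library totals Cd3e was at -0.30, Cd3g at -0.75, Cd247 at -0.67, Lck at -0.31, Lat at -0.26, Cd28 at -0.34 and Cd5 at -0.55, the median of the 9 genes was -0.34, and the pathway median turned to -0.012. With the other T cell genes set equal, the values were -0.15 for Cd3d, 0.080 for Cd3e, -0.37 for Cd3g, -0.29 for Cd247, 0.072 for Lck, 0.058 for Zap70, 0.12 for Lat, 0.041 for Cd28 and -0.17 for Cd5, with a median of 0.041 for the 9 genes and of 0.37 for the pathway genes. The number of the 9 genes at least 1.5-fold lower was 1 as deposited, 2 with library totals, TMM or the median of ratios, 0 with the T cell genes set equal, 0 at 2-fold, and 0 with edgeR's exact test at an assumed coefficient of variation of 0.2 or 0.4. The lowest adjusted p of that test at 0.2 was 0.41, for Cd3g. Of the pathway genes, 14 were higher and 2 lower with the T cell genes set equal, 0 higher and 1 lower at 2-fold, 0 and 1 with edgeR's exact test at 0.2, and 0 and 0 at 0.4. In all genes, setting the T cell genes equal moved the share of higher among the changed ones from 41.6% to 58.6%. With a minimum mean level of 10, 2112 of 13676 genes were higher and 2035 lower, beside 2864 and 4028 of 16659 as deposited. The length used for the CD3 chains was added after seeing the data, and with the union of exons the length-scaled share of Cd3d was 26.2% in place of 11.5% in the control library.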
